A study of Mus musculus with 6 samples.

Results

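Non-coding RNAs expressed in mouse ADSCs were compared between cells with a scrambled hairpin and cells with a hairpin against Ifit1. Of the 19877 genes in the deposited table, 4204 are marked as non-coding, and 207 of these reached 1 FPKM (fragments scaled to transcript length and library depth) in at least 3 of the 6 libraries. The numbered Snhg genes (15), Gas5 and H19 (2), and 1 gene described as a pseudogene were left out, so that 189 non-coding RNAs remained, called members here. The members were thus chosen by their level, and the levels near the threshold are a description of that choice. Just inside it lay Gm19378, whose third-highest value was 1.000324 FPKM, and Gm33318, and just outside it lay Gm19391, at 0.999996 FPKM, and Gm16740. In all 6 libraries, 131 members reached 1 FPKM. Only in the 3 scrambled libraries did 7 members reach it (5830408C22Rik, A330074K22Rik, Airn, Gm17396, Gm32404, Gm33318 and Gm5817) and only in the 3 knockdown libraries 3 members (Gm15270, Gm7160 and Ptgs2os). These 10 had to differ between the groups.

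ADSC is a common abbreviation of adipose-derived stem cell, a multipotent stromal cell isolated from fat, which the labels do not spell out. All 6 libraries carry the genotype label WT and a hairpin, either the scrambled control (3 libraries) or the one against Ifit1 (3 libraries), and each of 3 labelled batches holds 1 library of each group. The labels do not give the target site of the hairpin, the vector, the animals or the time after its introduction, nor whether libraries came from separate cultures, so a p-value covers the scatter of these 3 and 3 libraries, part of which can be technical. RNA was captured with beads for mRNA, a step that favours RNAs with a poly(A) tail. Ifit1 itself, an interferon-stimulated gene whose product recognises foreign RNA by its 5′ end, was at 4.90, 3.75 and 4.97 FPKM in scrambled libraries 1 to 3 and 1.76, 1.48 and 1.51 FPKM in knockdown libraries 1 to 3 (log2 fold change −1.27 ± 0.11, limma adjusted p = 5.7e-05).

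Library depth, recovered from the values, ran from 32.2 M to 40.6 M fragments, and a member had a median of 106 to 143 fragments per library. Non-coding genes listed at 0 numbered 1562 to 1670 per scrambled library and 1700 to 1928 per knockdown library. Of 10 stromal cell markers, 9 passed the level filter (3 rose and 6 fell). The summed level of the 10 ran from 1660 to 1835 FPKM in scrambled and from 1135 to 1253 FPKM in knockdown libraries. Col1a1 made up most of this sum and fell from a mean of 1220 to 676 FPKM. Itgb1, the next highest, rose from a mean of 296 to 316 FPKM. Leukocyte markers summed to 1.81 to 2.50 FPKM in all 6 libraries, with Ptprc at 0 in the scrambled libraries, endothelial markers to at most 0.0984 FPKM and Schwann cell markers to at most 0.311 FPKM. The 6 markers of epithelium and mesothelium summed to between 19.3 and 27.5 FPKM in scrambled and between 13.7 and 18.8 FPKM in knockdown libraries, mostly from Msln. The part of these differences in the results on the members was not tested.

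Long non-coding RNAs carry no long reading frame, and their functions differ from gene to gene. Some stay in the nucleus and act on chromatin or nuclear bodies, some are precursors whose hairpins are cut out as microRNAs or whose introns release small nucleolar RNAs (snoRNAs, which guide the modification of ribosomal RNA), and many start beside the promoter of a coding gene and run in the opposite direction. A microRNA pairs with its targets mainly through its seed, bases 2 to 8 from the 5′ end, so that microRNAs with 1 seed share many targets.

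The microRNAs below are shown because their host transcripts were among the members that moved most, and because 2 hosts of microRNAs with a shared seed moved in opposite directions. Only the host transcripts were measured, and mature microRNAs were not. Sequences are from RefSeq (GRCm38.p6), written 5′ to 3′ with the seed in capitals.
Mir17hg (rose), with the seed AAAGUGC in 2 microRNAs and GUGCAAA in 2 others:
mmu-miR-17-5p: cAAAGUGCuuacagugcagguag
mmu-miR-20a-5p: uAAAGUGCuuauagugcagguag
mmu-miR-18a-5p: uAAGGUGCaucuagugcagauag
mmu-miR-19a-3p: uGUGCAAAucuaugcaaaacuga
mmu-miR-19b-3p: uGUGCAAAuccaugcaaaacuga
mmu-miR-92a-3p: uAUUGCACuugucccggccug
Mir100hg (rose), which also holds Mirlet7a-2:
mmu-miR-100-5p: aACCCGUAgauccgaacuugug
mmu-miR-125b-5p: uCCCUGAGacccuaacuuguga
Mir155hg (rose):
mmu-miR-155-5p: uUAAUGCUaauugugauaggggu
Dleu2 (rose) and C430049B03Rik (fell), where miR-16-5p and miR-322-5p share the seed AGCAGCA and miR-503-5p has AGCAGCG:
mmu-miR-16-5p: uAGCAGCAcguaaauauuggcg (Dleu2)
mmu-miR-322-5p: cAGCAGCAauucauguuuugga (C430049B03Rik)
mmu-miR-503-5p: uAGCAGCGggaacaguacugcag (C430049B03Rik)
Dnm3os (fell):
mmu-miR-199a-5p: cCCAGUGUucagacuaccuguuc
mmu-miR-199a-3p: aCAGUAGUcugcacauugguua
mmu-miR-214-3p: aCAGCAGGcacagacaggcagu

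Knockdown of Ifit1 went with changes in both directions among the non-coding RNAs, most of them under 2-fold. Of the 189 members, 69 (36.5%) passed an adjusted p of 0.05 in limma on log2(FPKM + 0.5), against 51.0% of all 10311 genes tested. Higher in knockdown were 32 members (16.9%, against 19.8% of all genes tested) and lower were 37 (19.6%, against 31.1%). Most genes tested lie at higher levels than most members, and counts by level are given below. The groups did not overlap for 79 members (61.1% of all genes tested), with the knockdown libraries above in 36 (23.8%) and below in 43 (37.3%). All 69 called members moved in 1 direction in each of the 3 batches. The batches pair the same libraries that gave the calls. This count therefore largely follows from the calls and is no separate check of them. The median log2 fold change over the members was −0.04, that over all genes tested was −0.05, and the members ranged from −0.77 to 0.85. No member reached a log2 fold change of 1 in size (1.24% of all genes tested were called and did). In limma 79 members (41.8%) had an unadjusted p under 0.05, while 51.0% of all genes tested passed even the adjusted threshold. By the ratio of mean FPKM, without the added 0.5, Gm38446 was 2.12 times as high in knockdown, and 5830408C22Rik and A330074K22Rik were 2.21 and 2.15 times as high in scrambled libraries. As an FPKM cannot tell fewer cells of a type from less RNA per cell, all differences are differences in the bulk sample.

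**Figure D1:**
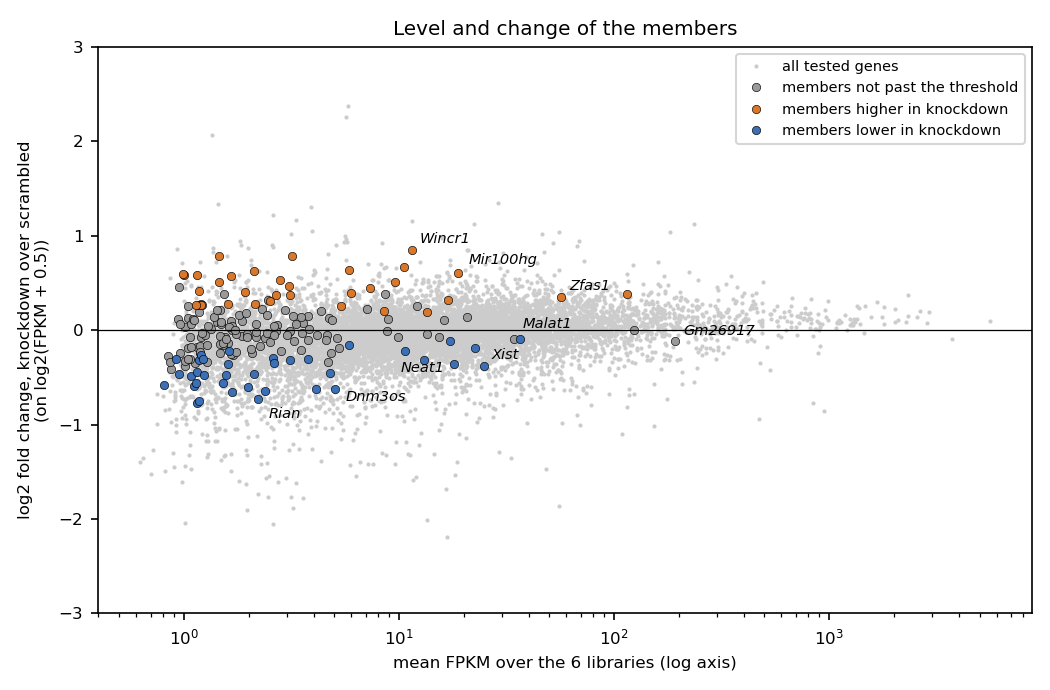
Mean FPKM over the 6 libraries (horizontal, log axis) against the log2 fold change of knockdown over scrambled, with 1 point for each gene. The members lie between −0.77 and 0.85, and most lie at the low end of the level range of all 10311 genes tested (small grey points).

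Members were less abundant and more variable than other genes. Their median coefficient of variation within a group was 11.5% in scrambled and 12.7% in knockdown libraries, where counting alone gives 8.89% and 9.18%. Over all genes tested it was 3.81% and 4.49%. The median standard error of the log2 fold change was 0.11 for members and 0.05 for all genes tested, and the median size of a called change was 0.44 and 0.26. Among the 22 members with a mean of at least 10 FPKM, 7 were called higher and 7 lower (63.6% called, against 54.8% of all genes tested at that level). Of these 5363 genes 1589 were higher and 1349 lower. Of the 66 members with a mean under 1.5 FPKM, 31.8% were called (8 higher and 13 lower), against 46.7% of all genes tested at that level (37 higher and 262 lower of 640). From 1.5 to 3 FPKM 8 of 58 members rose and 11 fell, against 75 and 430 of 1131 genes. From 3 to 10 FPKM 9 of 43 rose and 6 fell, against 345 and 1168 of 3177. In each class a larger share of members than of all genes rose (by little at 10 FPKM or more), and under 10 FPKM a smaller share fell. The summed FPKM of the members was 1206, 1174 and 1226 in scrambled libraries 1 to 3 and 1264, 1249 and 1206 in knockdown libraries 1 to 3. These sums overlapped, with a ratio of the means of 1.03 (exact permutation test, two-sided, p = 0.2, where 0.1 is the smallest p that 3 against 3 allows).

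The largest rise was that of Wincr1, a RNA first described as induced by WNT signalling in fibroblasts (chr4:89050307-89084610, plus strand, positions here and below in GRCm38). Wincr1 was at 9.39, 7.93 and 6.78 FPKM in scrambled libraries 1 to 3 and 15.3, 15.4 and 13.8 FPKM in knockdown libraries 1 to 3 (log2 fold change 0.85 ± 0.10, adjusted p = 0.000223). All knockdown libraries lay well above the scrambled ones, and the ratio of the means was 1.85. Gm38446, a predicted gene (chr1:132278515-132291356, minus strand), was at 0.815, 0.891 and 1.09 FPKM in scrambled libraries 1 to 3 and 2.28, 1.97 and 1.68 FPKM in knockdown libraries 1 to 3 (0.79 ± 0.11, adjusted p = 0.000680). All of its knockdown values lay above its scrambled values, and adding 0.5 FPKM shrinks the log2 value of such a low gene. Gm6634 (chr3:70772379-70807291, minus strand), another predicted gene with no coding gene within 5 kb, was at 1.61, 1.60 and 1.44 FPKM (scrambled) and 2.61, 2.42 and 2.97 FPKM (knockdown) (0.62 ± 0.08). Its groups were also separate. Map2k3os, which starts beside the kinase gene Map2k3 and runs away from it (chr11:60920941-60931867, minus strand), was at 2.66, 2.03 and 1.85 FPKM in scrambled libraries 1 to 3 and 5.26, 3.96 and 3.23 FPKM in knockdown libraries 1 to 3 (0.78 ± 0.16, adjusted p = 0.00379). The 3 knockdown values were spread widely and still lay above the scrambled ones. The other large rises were those of Mir17hg, Dancr, Mir100hg, Ptgs2os, Gm15270 and Gm7160, given below with their small RNAs or neighbours.

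**Figure D2:**
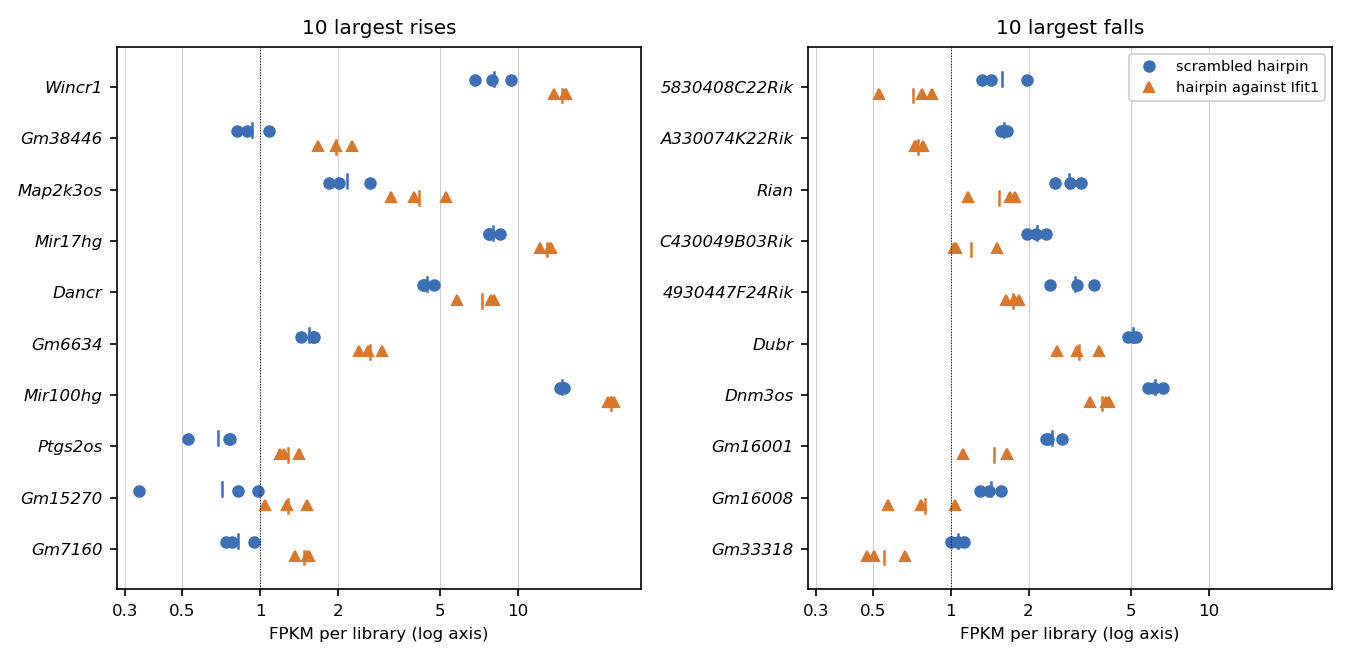
FPKM in each library (log axis) of the 10 members with the largest rises and the 10 with the largest falls, circles for scrambled and triangles for knockdown libraries, with a short vertical line at each group mean and a dotted line at 1 FPKM. For all 20 members the triangles and circles do not overlap, as the choice of these members required.

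Rian (also known as Meg8), a maternally expressed RNA of the imprinted Dlk1-Dio3 region, fell (chr12:109603945-109661716, plus strand). It was at 3.20, 2.53 and 2.89 FPKM in scrambled libraries 1 to 3 and 1.16, 1.69 and 1.77 FPKM in knockdown libraries 1 to 3 (−0.73 ± 0.13, adjusted p = 0.00172). The highest knockdown value lay below the lowest scrambled value. Larger falls were seen in 2 members that reached 1 FPKM only in the scrambled libraries, namely 5830408C22Rik at 1.32, 1.98 and 1.42 FPKM (scrambled) and 0.772, 0.526 and 0.843 FPKM (knockdown) (−0.77 ± 0.15) and A330074K22Rik at 1.59, 1.65 and 1.57 FPKM (scrambled) and 0.730, 0.729 and 0.783 FPKM (knockdown) (−0.75 ± 0.08). The former rests on 6 to 26 fragments per library and the latter on 59 to 162. Dubr, whose name stands for Dppa2 upstream binding RNA (chr16:50726751-50732773, minus strand), was at 5.24, 5.10 and 4.86 FPKM in scrambled libraries 1 to 3 and 2.57, 3.76 and 3.08 FPKM in knockdown libraries 1 to 3 (−0.63 ± 0.11, adjusted p = 0.00154). The scrambled libraries were close together and all above the knockdown libraries. 4930447F24Rik, Gm16001, Gm16008 and Gm33318 also fell, by 0.64, 0.60, 0.59 and 0.58 on the log2 scale. Under quantile normalization the calls of Gm16008 (−0.31, adjusted p = 0.0625) and Gm33318 (−0.18, adjusted p = 0.221) were lost.

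Among members that hold microRNA genes, 3 hosts rose strongly and 3 fell strongly. A microRNA of the RefSeq sequence table lay on the strand of 14 members, within their span or within 1 kb of it. Of these, 4 rose (28.6%, against 19.8% of all genes tested), 3 fell (21.4%, against 31.1%) and 7 did not pass the test, and such shares are near those of all genes. Carmn, in which GENCODE M21 places Mir143 and Mir145a, is not among the 14 and did not pass. Mir17hg, the precursor of the miR-17-92 cluster and a known target of MYC, was at 7.74, 8.51 and 7.72 FPKM in scrambled libraries 1 to 3 and 13.4, 13.3 and 12.2 FPKM in knockdown libraries 1 to 3 (0.67 ± 0.06, adjusted p = 5.4e-05). The groups were far apart relative to their spread. In RefSeq its span (chr14:115044390-115046728, plus strand) begins after 5 of the 6 hairpins, which lie within 1 kb upstream. Mir100hg (chr9:41376526-41615185, plus strand), which holds Mir100, Mirlet7a-2 and Mir125b-1, was at 14.7, 15.1 and 14.6 FPKM in scrambled libraries 1 to 3 and 23.4, 22.2 and 22.9 FPKM in knockdown libraries 1 to 3 (0.61 ± 0.04, adjusted p = 1.9e-05). With 3855 to 6469 fragments per library it was among the most precisely measured members. Mir155hg, the host of the immune microRNA miR-155 (chr16:84713023-84715245, plus strand), was at 1.16, 1.06 and 1.10 FPKM in scrambled libraries 1 to 3 and 1.67, 1.65 and 2.09 FPKM in knockdown libraries 1 to 3 (0.52 ± 0.09, adjusted p = 0.00221). All of its knockdown values exceeded the scrambled ones. Dleu2 (chr14:61602836-61682373, minus strand), which holds Mir15a and Mir16-1, was at 1.15, 0.899 and 1.09 FPKM (scrambled) and 1.44, 1.23 and 1.40 FPKM (knockdown) (0.27 ± 0.10, adjusted p = 0.0473). The call of Dleu2 was lost under 8 of the 16 alternative settings, among them leaving out any 1 of the scrambled libraries (0.32, 0.20 and 0.29 without library 1, 2 and 3) or knockdown library 1 (0.23) or 3 (0.25).

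**Figure D3:**
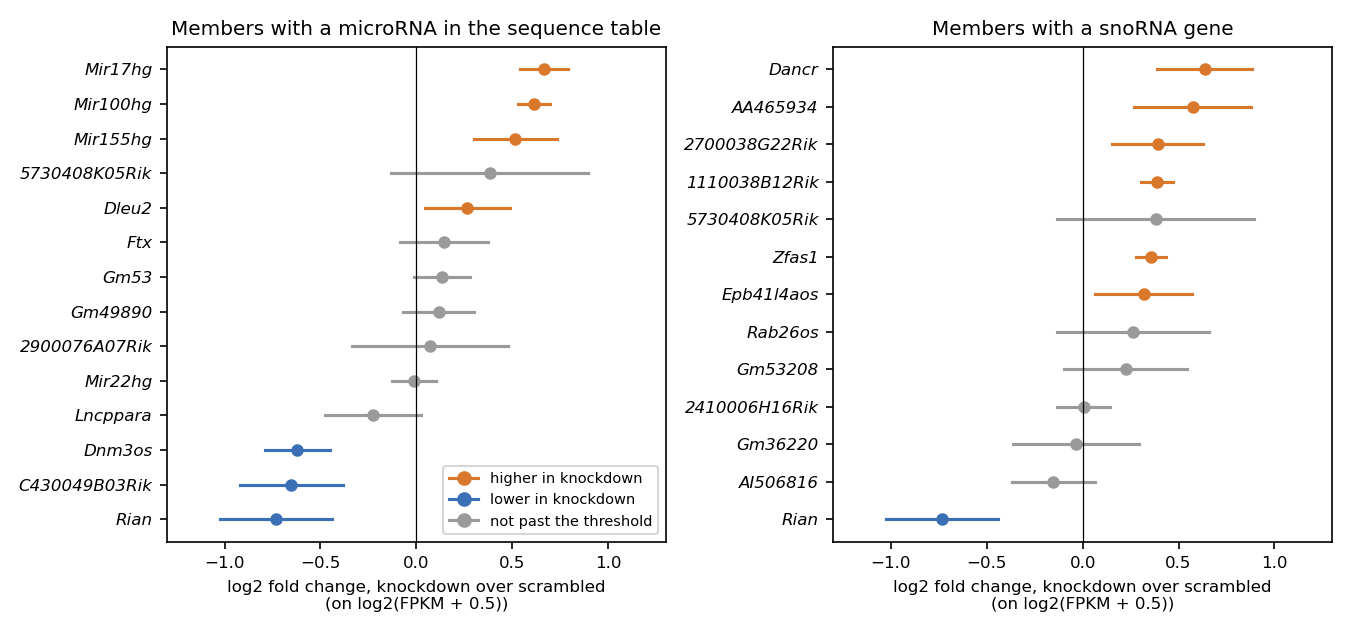
Log2 fold change (point) with its 95% confidence interval (line) of the 14 members with a microRNA of the RefSeq sequence table and the 13 members with a snoRNA gene, from limma on log2(FPKM + 0.5). Mir17hg, Mir100hg and Mir155hg stand at the upper end and Dnm3os, C430049B03Rik and Rian at the lower end, and Rian is in both panels.

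C430049B03Rik (chrX:53053112-53057190, minus strand), which holds Mir322, Mir503 and Mir351, was at 1.97, 2.34 and 2.14 FPKM in scrambled libraries 1 to 3 and 1.05, 1.51 and 1.03 FPKM in knockdown libraries 1 to 3 (−0.65 ± 0.12, adjusted p = 0.00207). Its lowest scrambled value was above its highest knockdown value. miR-322-5p in this transcript and miR-16-5p in Dleu2 have the same seed, and their hosts moved in opposite directions. Dnm3os, which overlaps Dnm3 on the opposite strand (chr1:162217623-162225550, plus strand) and is the precursor of miR-199a and miR-214, was at 5.81, 6.12 and 6.66 FPKM in scrambled libraries 1 to 3 and 3.47, 4.10 and 4.00 FPKM in knockdown libraries 1 to 3 (−0.62 ± 0.07, adjusted p = 0.000257). The groups were separate, with 1016 to 2006 fragments per library. Rian, described above, also holds Mir341, Mir370 and Mir1188. Hosts that did not pass included Mir22hg at 8.37 to 9.33 FPKM in the scrambled and 8.52 to 8.98 FPKM in the knockdown libraries (−0.01 ± 0.05), Ftx, a regulator of Xist that holds Mir421 and Mir374b (0.14 ± 0.10), and Lncppara, which holds Mirlet7c-2 and Mirlet7b (−0.23 ± 0.11). Ftx passed under quantile normalization (0.38) and cyclic loess (0.36), and Lncppara with batch as a block (−0.23, adjusted p = 0.0492) and without knockdown library 3 (−0.32, adjusted p = 0.0386).

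Of 13 members that hold snoRNA genes 6 rose (46.2%, against 19.8% of all genes tested) and 1, Rian, fell. Under quantile normalization and cyclic loess 6 rose as well, without the level filter and with limma-voom 4, and with batch as a block 9. 1110038B12Rik, which holds Snord52, was at 101, 102 and 96.0 FPKM in scrambled libraries 1 to 3 and 136, 129 and 126 FPKM in knockdown libraries 1 to 3 (0.39 ± 0.04, adjusted p = 9.6e-05). It was the third most abundant member, and its groups were far apart. Zfas1, which holds Snord12 and starts beside Znfx1, was at 50.2, 49.0 and 49.1 FPKM in scrambled libraries 1 to 3 and 65.3, 60.8 and 64.3 FPKM in knockdown libraries 1 to 3 (0.36 ± 0.03, adjusted p = 9.5e-05). Dancr, a RNA known to restrain differentiation, holds Snora26 and was at 4.74, 4.29 and 4.30 FPKM in scrambled libraries 1 to 3 and 8.06, 7.87 and 5.81 FPKM in knockdown libraries 1 to 3 (0.64 ± 0.11, adjusted p = 0.00159). Knockdown library 3 was the lowest of its group and still above all scrambled libraries. AA465934 (Snord7, 0.57 ± 0.13), 2700038G22Rik (Snord93, 0.39 ± 0.10) and Epb41l4aos (0.32 ± 0.11) also rose. The call of Epb41l4aos was lost under 7 of the 16 alternative settings, among them without scrambled library 1 (0.17) and without knockdown library 1 (0.32) or 2 (0.27). 2410006H16Rik, which holds Snord49a, Snord49b and Snord65 and had the second-highest level, was at 120, 122 and 128 FPKM in scrambled libraries 1 to 3 and 132, 130 and 111 FPKM in knockdown libraries 1 to 3 (0.01 ± 0.06, adjusted p = 0.938). The groups overlapped. Among the better known snoRNA hosts that the rule leaves out, the tested Snhg genes and Gas5, 14 of 16 rose and 1 fell.

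A list of RNAs linked to the nucleus or to chromatin covers 11 members, including Norad, whose role given below is in the cytoplasm. Of the 11, 7 fell, Norad among them (63.6%, against 31.1% of all genes tested). The other 4 did not pass, and the median log2 fold change was −0.22. The list and its direction were known from earlier results and support nothing beyond these counts. Under quantile normalization and cyclic loess, 4 of the 11 fell and 1 (Ftx) rose. Xist, the RNA that coats the inactive X chromosome (chrX:103460373-103483233, minus strand), was at 27.1, 28.6 and 28.3 FPKM in scrambled libraries 1 to 3 and 20.0, 21.9 and 22.6 FPKM in knockdown libraries 1 to 3 (−0.37 ± 0.05, adjusted p = 0.000416). All knockdown libraries were below all scrambled libraries, with 12778 to 19881 fragments per library, and reads of its antisense partner Tsix cannot be told apart from its own without strand. Neat1, the scaffold of paraspeckles (chr19:5824708-5845480, minus strand), was at 11.7, 10.9 and 11.8 FPKM in scrambled libraries 1 to 3 and 9.27, 9.84 and 10.2 FPKM in knockdown libraries 1 to 3 (−0.22 ± 0.05, adjusted p = 0.00712). The fall was small and the groups were separate. Firre, which anchors X-linked loci in the nucleus, was at 3.67, 3.31 and 3.49 FPKM (scrambled) and 2.86, 2.63 and 2.62 FPKM (knockdown) (−0.32 ± 0.07, adjusted p = 0.00393). Chaserr, which restrains the neighbouring chromatin remodeller gene Chd2, was at 1.73, 1.89 and 1.97 FPKM (scrambled) and 1.43, 1.21 and 1.39 FPKM (knockdown) (−0.36 ± 0.08, adjusted p = 0.00706). Chd2 itself lies on the same strand, overlaps Chaserr in the annotation and fell by 0.49. The calls of Firre and Chaserr were lost under quantile normalization (−0.15 and −0.14) and cyclic loess (−0.17 and −0.16).

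Airn, the imprinted RNA that silences Igf2r in cis (chr17:12741311-12859884, plus strand), was at 1.04, 1.67 and 1.32 FPKM in scrambled libraries 1 to 3 and 0.942, 0.590 and 0.924 FPKM in knockdown libraries 1 to 3 (−0.48 ± 0.15, adjusted p = 0.0284). Igf2r fell too (−0.48 ± 0.03), and since no source used here says whether the counting used strand, reads of overlapping genes such as these cannot be told apart. Airn reached 1 FPKM in the scrambled libraries only, with 42 to 137 fragments per library. Its call was lost under 7 of the 16 alternative settings, among them without scrambled library 2 (−0.36) or 3 (−0.48) and without knockdown library 2 (−0.35). Norad, which sequesters Pumilio proteins in the cytoplasm, was at 37.0 to 38.0 FPKM in the scrambled and 34.4 to 36.2 FPKM in the knockdown libraries (−0.09 ± 0.03, adjusted p = 0.0435). Its call was lost under 7 settings, among them without scrambled library 1 (−0.10), 2 (−0.08) or 3 (−0.09), without knockdown library 1 (−0.07) or 2 (−0.09) and under median centring (−0.02). Malat1, an abundant RNA of nuclear speckles, was at 34.2, 38.0 and 32.5 FPKM in scrambled libraries 1 to 3 and 25.3, 30.1 and 45.6 FPKM in knockdown libraries 1 to 3 (−0.09 ± 0.18, adjusted p = 0.690). Knockdown library 3 was the highest and knockdown library 1 the lowest of all 6. Without knockdown library 3 Malat1 was called lower (−0.33, adjusted p = 0.0103), and without knockdown library 1 its sign turned (0.09). Carmn (−0.04 ± 0.16) and Peg13 (0.05 ± 0.09) overlapped between the groups and did not pass.

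A list of RNAs linked to growth, p53 and stress covers 14 members, of which 8 rose (57.1%, against 19.8% of all genes tested), 3 fell (21.4%, against 31.1%) and 3 did not pass (median log2 fold change 0.27). Without knockdown library 1, 5 rose and 2 fell, and 5 rose also without the level filter and under TPM. This list, too, was drawn up with earlier results known. All of the risers are microRNA or snoRNA hosts already counted above, except Morrbid, a myeloid RNA that represses Bcl2l11. Morrbid was at 2.14, 1.98 and 1.56 FPKM (scrambled) and 2.63, 2.33 and 2.24 FPKM (knockdown) (0.28 ± 0.10, adjusted p = 0.0487). Its call was lost under 8 of the 16 alternative settings, among them without scrambled library 2 (0.31) or 3 (0.18) and without knockdown library 1 (0.23) or 2 (0.30). Pvt1, the neighbour of Myc, was at 3.22 to 3.34 FPKM in the scrambled and 3.46 to 4.03 FPKM in the knockdown libraries (0.14 ± 0.07, adjusted p = 0.116), and it passed only under median centring (0.20), quantile normalization (0.30) and cyclic loess (0.27). Oip5os1, known as Cyrano, which promotes the destruction of miR-7, fell. It was at 20.4, 20.5 and 19.7 FPKM in scrambled libraries 1 to 3 and 14.6, 16.5 and 15.8 FPKM in knockdown libraries 1 to 3 (−0.36 ± 0.05, adjusted p = 0.000497), with all knockdown libraries below the scrambled ones. Lockd, which lies downstream of the cell cycle inhibitor gene Cdkn1b on the same strand, was at 14.5, 14.9 and 14.2 FPKM (scrambled) and 10.2, 13.7 and 11.0 FPKM (knockdown) (−0.32 ± 0.09, adjusted p = 0.0181). Cdkn1b fell as well (−0.37 ± 0.06). The call of Lockd was lost without the level filter (adjusted p = 0.0776), without scrambled library 2 (−0.30) and without knockdown library 1 (−0.23).

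The most abundant member was Gm26917, at 192, 173 and 234 FPKM in scrambled libraries 1 to 3 and 201, 192 and 157 FPKM in knockdown libraries 1 to 3 (−0.12 ± 0.12, adjusted p = 0.419). The groups overlapped, and scrambled library 3 was the highest. In GENCODE M21 the gene (chr17:39843013-39846341, plus strand) ends 11 bases before the ribosomal RNA gene CT010467.1 on the opposite strand, a sequence present in many copies, so its value is uncertain, and the part of ribosomal RNA in it was not tested. Without Gm26917 the summed FPKM of the members had a ratio of 1.05 (exact permutation test, two-sided, p = 0.1), with all knockdown sums above all scrambled sums. 2810025M15Rik, which GENCODE types as a processed pseudogene, was at 23.5 to 24.6 FPKM in the scrambled and 19.3 to 23.1 FPKM in the knockdown libraries (−0.19 ± 0.06, adjusted p = 0.0274). Its call was lost under 6 of the 16 alternative settings, among them without scrambled library 1 (−0.18) or 2 (−0.18) and without knockdown library 1 (−0.13).

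Many members begin beside a coding gene. A coding start lay within 1 kb on the opposite strand for 75 members, and for 69 of these the coding gene was tested too. In 17 pairs both were called, in 14 of them in 1 direction (8 higher and 6 lower) and in 3 in opposite directions. Of the 14, 6 have a member that reached 1 FPKM in 1 group only, so that its direction followed from the choice of members. Without these, 5 pairs were both higher, 3 both lower and 3 opposite. Of all genes tested 51.0% were called. Only the coding gene was called in 8 pairs where it rose and 11 where it fell. Only the member was called in 2 pairs where it rose and 8 where it fell, and neither gene was called in 23. The signs were the same in 43 of the 69 pairs. This count and the correlations that follow include the members that reached 1 FPKM in 1 group only, whose direction was fixed. Across the 69 pairs the log2 fold changes had a Pearson correlation of 0.49 and a Spearman correlation of 0.36. These describe genes measured in the same 6 libraries, and both values of a pair can share reads where the genes overlap. Under quantile normalization 12 pairs were both higher, 1 was both lower and 5 were opposite, under cyclic loess 10, 2 and 5, and without the level filter 7, 4 and 1.

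**Figure D4:**
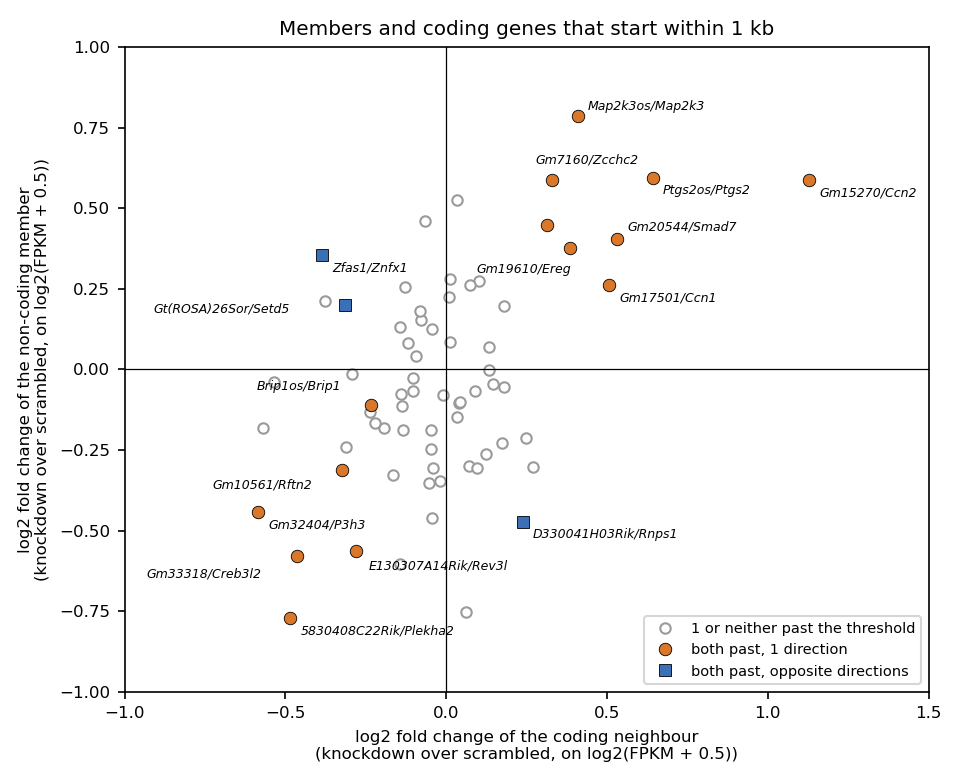
Log2 fold change of the coding neighbour (horizontal) against that of the non-coding member (vertical) for the 69 pairs that start within 1 kb on opposite strands. Filled circles are the 14 pairs called in 1 direction, squares the 3 pairs called in opposite directions and open circles the other pairs. Of the 14 filled circles, 13 carry names.

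Both genes of a pair rose at several loci of growth factor and signalling genes. Gm15270 overlaps the start of Ccn2, which encodes connective tissue growth factor, by 362 bases. Gm15270 was at 0.979, 0.819 and 0.341 FPKM in scrambled libraries 1 to 3 and 1.28, 1.52 and 1.05 FPKM in knockdown libraries 1 to 3 (0.59 ± 0.20, adjusted p = 0.0377). It reached 1 FPKM only in the knockdown libraries, with 11 to 42 fragments per library, while Ccn2 rose by 1.13 ± 0.14 from a mean of 145 to 324 FPKM. The call of Gm15270 was lost under 5 settings, among them without scrambled library 3 (0.34) and without knockdown library 1 (0.58) or 2 (0.49). Gm17501 starts 96 bases from Ccn1, another gene of the CCN family, and was at 5.03, 4.50 and 5.07 FPKM in scrambled libraries 1 to 3 and 6.21, 5.99 and 5.59 FPKM in knockdown libraries 1 to 3 (0.26 ± 0.06, adjusted p = 0.00853). Ccn1 rose by 0.51 ± 0.05. Ptgs2os starts 157 bases from Ptgs2, which encodes the prostaglandin-forming enzyme cyclooxygenase, and was at 0.767, 0.759 and 0.527 FPKM in scrambled libraries 1 to 3 and 1.41, 1.24 and 1.19 FPKM in knockdown libraries 1 to 3 (0.59 ± 0.11, adjusted p = 0.00253). This member, too, reached 1 FPKM only in the knockdown libraries, and Ptgs2 rose by 0.64 ± 0.11. Map2k3, beside Map2k3os, rose by 0.41 ± 0.05. Gm20544 (0.41 ± 0.10) rose with Smad7, an inhibitor of TGF-beta signalling (0.53 ± 0.07), and Gm19610 (0.38 ± 0.09) with the growth factor gene Ereg (0.39 ± 0.10). Gm7160 was at 0.778, 0.738 and 0.950 FPKM (scrambled) and 1.55, 1.37 and 1.52 FPKM (knockdown) and rose (0.59 ± 0.10), as did Zcchc2, whose start is 124 bases away (0.33 ± 0.06).

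The 6 pairs in which both fell were 5830408C22Rik with Plekha2 (−0.48 ± 0.06), Gm33318 with the transcription factor gene Creb3l2 (−0.46 ± 0.05), Gm32404 with the collagen-modifying enzyme gene P3h3 (−0.59 ± 0.07), E130307A14Rik with the DNA polymerase gene Rev3l (−0.28 ± 0.07), Gm10561 with Rftn2 (−0.32 ± 0.08) and Brip1os with the DNA helicase gene Brip1 (−0.23 ± 0.09). Among these members, Brip1os was the most abundant, with a mean of 18.0 ± 0.671 FPKM in scrambled and 16.6 ± 0.334 FPKM in knockdown libraries (SD, n = 3), and its fall of −0.11 ± 0.04 was the smallest. Calls were lost under 9 of the 16 alternative settings for Gm10561, among them without scrambled library 1 (−0.29) or 3 (−0.26), without knockdown library 1 (−0.33) or 2 (−0.25) and under quantile normalization (−0.06). They were lost under 9 for Brip1os too, among them without scrambled library 1 (−0.09) or 3 (−0.10), without knockdown library 1 (−0.11) or 2 (−0.10) and under median centring (−0.04). Gm32404 (−0.17 and −0.21) and E130307A14Rik (−0.33 and −0.35) lost theirs under quantile normalization and cyclic loess. In opposite directions went Zfas1 (0.36 ± 0.03) and Znfx1, an antiviral helicase gene (−0.39 ± 0.06), whose starts are 81 bases apart. Gt(ROSA)26Sor, the locus widely used for transgenes, was at 8.32, 7.37 and 7.87 FPKM (scrambled) and 8.56, 9.60 and 9.15 FPKM (knockdown) and rose (0.20 ± 0.06), while Setd5 fell (−0.32 ± 0.04). D330041H03Rik fell (−0.47 ± 0.14) and Rnps1, of the exon junction complex, rose (0.24 ± 0.03). The call of Gt(ROSA)26Sor was lost under 6 of the 16 alternative settings, among them without scrambled library 2 (0.16) or 3 (0.20) and without knockdown library 2 (0.16). That of D330041H03Rik was lost under 5, among them without scrambled library 1 (−0.33) or knockdown library 3 (−0.40) and under quantile normalization (−0.26).

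A RefSeq promoter window (250 bases before to 50 after a start site, GRCm38.p6) was found for 148 members (162 windows). The windows at 2 of the shared starts where the member and its coding neighbour rose together are shown, 5′ to 3′ on the strand of the member. Both hold a match to a motif given below. No match to these motifs was found for Gm15270, Map2k3os, Gm20544, Gm19610 or Gm7160, which also rose with their neighbours. Members without a window could not be searched. The capitals mark the TEAD core GGAATG in the window of Gm17501 (chr3:145649827-145650126, plus strand), a motif added after the values were seen, and the E-box CACGTG in that of Ptgs2os (chr1:150099825-150100124, minus strand).
Gm17501: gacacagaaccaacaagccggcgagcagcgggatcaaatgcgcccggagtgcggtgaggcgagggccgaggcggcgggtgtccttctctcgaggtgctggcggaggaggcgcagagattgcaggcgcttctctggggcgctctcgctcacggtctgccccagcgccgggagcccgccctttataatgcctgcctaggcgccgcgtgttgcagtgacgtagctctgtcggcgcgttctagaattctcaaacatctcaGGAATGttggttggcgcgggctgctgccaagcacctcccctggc
Ptgs2os: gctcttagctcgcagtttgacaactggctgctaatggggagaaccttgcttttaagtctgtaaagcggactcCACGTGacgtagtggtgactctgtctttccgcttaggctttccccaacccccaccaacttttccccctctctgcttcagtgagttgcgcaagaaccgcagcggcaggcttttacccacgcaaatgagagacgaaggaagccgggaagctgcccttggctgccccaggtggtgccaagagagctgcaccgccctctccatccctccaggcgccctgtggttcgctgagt
Both strands were searched. GGAATG occurs in 14.7% of all 32851 windows of the table and in 15.4% of the member windows, in 4 of 29 windows of members that rose and in 7 of 29 of members that fell. CACGTG, in which ACGTG is contained, occurs in 7.15% of all windows, in 21 of 162 member windows (13.0%), in 6 of 29 windows of members that rose and in 1 of 29 of members that fell. ACGTG, the core of hypoxia response elements, occurs in 19.6% of all windows and in 31.5% of those of members, in 8 of 29 and 7 of 29 for members that rose and fell. The ATF4-type motif TGATGNAA occurs in 3.97% of all windows and in 2 of 162 member windows, and the interferon response core (TTTC, any 2 bases, TTTC) in 3.44% and 1.85%. These are matches of letters, not measured binding.

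Position and length also differed among the members. Of 71 members that overlap a coding gene on the opposite strand, 7 rose (9.86%, against 19.8% of all genes tested) and 20 fell (28.2%, against 31.1%). Of 43 members with no coding gene within 5 kb 12 rose (27.9%) and 5 fell (11.6%). In the first class 12 fell without scrambled library 1 or 3 and 13 without knockdown library 1 or 2, and 4 rose without scrambled library 2 or 3. Without the level filter 3 rose and 10 fell in the first class, and 6 rose in the second. This split depends on the scaling, since the first class had 14 higher and 6 lower under quantile normalization and the second 19 higher and 3 lower. The transcript length implied by the values had a median of 1284 bases in members that rose, 2258 in members that fell and 1500 in those that did not pass, against 3605 in the coding genes tested. Of the 189 members, 184 had a RefSeq position, and 182 are typed there as long non-coding RNA. GENCODE M21 types 5 members as protein-coding, none of which was called, and 3 as pseudogenes.

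Genes for the proteins that process or destroy non-coding RNA were counted from lists, with calls from the same fit, against 19.8% higher and 31.1% lower among all genes tested. Most genes on these lists had a mean of at least 10 FPKM. At that level 1589 of the 5363 genes tested were higher and 1349 lower, so that higher calls were more common there. The nuclear exosome and its adaptors, which degrade short-lived nuclear transcripts, had 9 of 20 genes higher and none lower, with Exosc2 at 30.9 to 32.7 FPKM in the scrambled and 39.1 to 40.5 FPKM in the knockdown libraries (0.33 ± 0.03) and the exonuclease gene Dis3 at 0.28 ± 0.04. Of the cap-binding complex and ARS2, which hand nuclear RNAs to these pathways, 3 of 5 rose (Ncbp1 0.21 ± 0.04, Ncbp2 0.20 ± 0.04, Srrt 0.15 ± 0.04). In microRNA processing 3 of 12 rose and 5 fell, with the export receptor gene Xpo5 higher (0.23 ± 0.03) and the Dicer partner gene Prkra lower (−0.34 ± 0.07). Paraspeckle proteins had 3 of 13 higher, a share near that of all genes, among them Tardbp (0.19 ± 0.03), and none lower. For nonsense-mediated decay and the exon junction 7 of 16 rose and 2 fell, led by Smg5 (0.28 ± 0.03). RNase P and RNase MRP had 6 of 10 higher and 1, Rpp25, lower (−0.99 ± 0.15). The Integrator complex had 2 of 14 higher and 1 lower. The 28 housekeeping and structural non-coding RNAs listed were nearly absent from the table (1 present, none tested).

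How many members were called higher or lower depended on how the libraries were scaled. Quantile normalization gave 54 higher and 16 lower (all genes tested: 24.1% and 21.9%), and cyclic loess 51 and 18 (22.0% and 24.1%). Median centring gave 41 and 27 (29.1% and 22.2%), and rescaling to TPM 27 and 44 (14.9% and 39.1%). The share of higher calls was thus 46.4% as reported, 77.1% under quantile normalization, 73.9% under cyclic loess and 60.3% under median centring. Calls among all genes tested shifted as well. They were 2046 higher and 3209 lower as reported and 2486 and 2256 under quantile normalization. Cyclic loess gave 2273 and 2480, and median centring 3001 and 2293. The median log2 fold change of the members moved from −0.04 to 0.15 under quantile normalization and to 0.13 under cyclic loess. With the batches entered as a block there were 38 higher and 41 lower calls (19.9% and 30.8% of all genes tested). In all 17 settings, the reported one included, 17 members were called higher (Wincr1, Gm38446, Map2k3os, Mir17hg, Dancr, Gm6634, Mir100hg, Ptgs2os, Gm7160, Zfp335os, Mir155hg, Gm30189, Gm20544, 1110038B12Rik, Gm19610, Zfas1 and Gm17501) and 12 lower (5830408C22Rik, A330074K22Rik, Rian, C430049B03Rik, 4930447F24Rik, Dubr, Dnm3os, Gm16001, Gm5817, Xist, Oip5os1 and Neat1). Of these, Ptgs2os, Gm7160, 5830408C22Rik, A330074K22Rik and Gm5817 reached 1 FPKM in 1 group only, which fixed their direction, and without them 15 were higher and 9 lower. How many of all genes tested were called in every setting was not counted, so whether members differ from other genes in this cannot be said. Among the 131 members at 1 FPKM in all 6 libraries, 25 were called higher and 25 lower as reported (19.1% each). Of all genes tested, whether or not at 1 FPKM in all 6, 19.8% were higher and 31.1% lower.

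**Figure D5:**
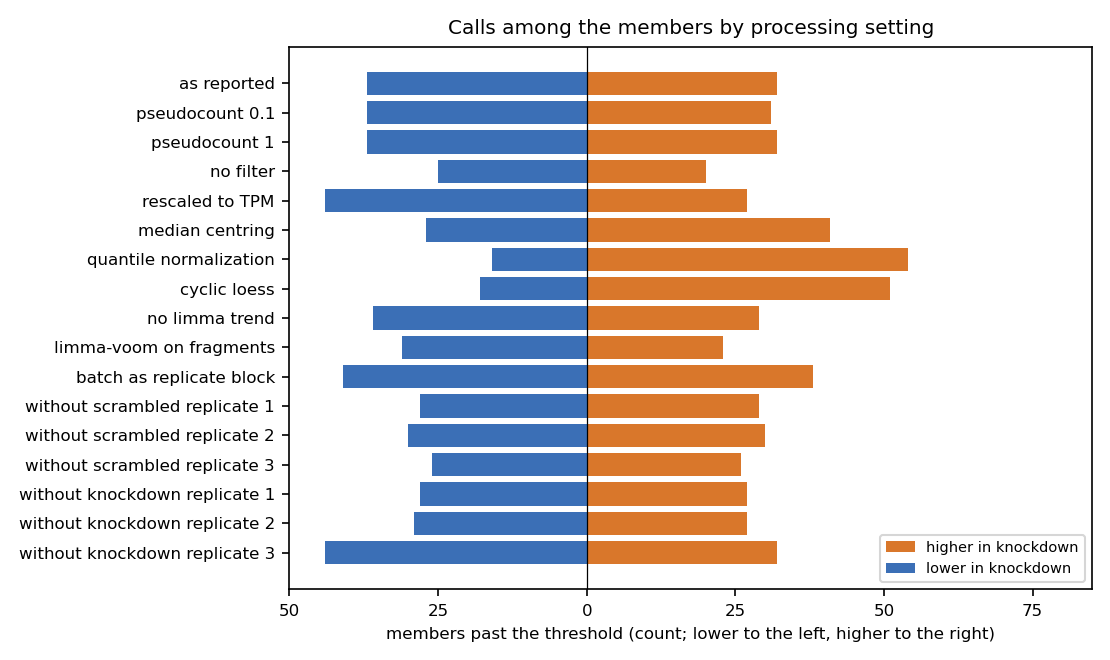
Number of members past the threshold under each processing setting, lower in knockdown to the left and higher to the right. Quantile normalization and cyclic loess gave the most higher calls (54 and 51) and the fewest lower calls (16 and 18).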

How the data were processed

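Poly(A) RNA of 6 libraries was sequenced (bead capture and heat fragmentation, per the labels' protocols). The authors deposited 1 table of FPKM values per gene and library. The submitters' processing notes name GRCm38, mm10 and GRCm39 without a role. For the aligner, the counting tool and the strand setting, no name is given in the sources used here. Values were whole multiples of that of 1 fragment for 19877 of 19877 genes (within 0.002), which gave depths of 40.6 M, 37.1 M and 37.7 M fragments (scrambled libraries 1 to 3) and 36.5 M, 32.2 M and 40.2 M (knockdown libraries 1 to 3).

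Genes with at least 1 FPKM in at least 3 of 6 libraries (10311) were fitted together with limma 3.58.1 in R 4.3.3 on log2(FPKM + 0.5), with a variance trend, a two-sided test and Benjamini-Hochberg adjustment over all of them. Errors after log2 values are standard errors. The fit was tested on simulated data with known changes in a small part of the genes and the same dispersion for all. That check of the code does not copy the scatter of these libraries. No count model gave the reported result, and limma-voom on the recovered fragments was an alternative. Libraries of 1 group did not agree within sampling noise (chi-square per gene 3.16 to 12.5). Because the labels name batches, equal numbers pair the libraries, and the deviations of a pair correlated at 0.09, 0.01 and 0.19. Positions and sequences are from RefSeq (GRCm38.p6), and gene types and hosted genes also from GENCODE M21.

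The members and lists were chosen with earlier results of these data known. Named by rule were Ifit1, the 10 largest rises and falls whose groups did not overlap, the 8 members of highest level, members on the role lists or named as microRNA hosts, up to 4 genes of smallest p per partner list and coding neighbours of these. Members in start pairs, small RNA hosts and members called under all settings were named after their values were seen. 1 start pair and 1 partner list are not reported here by name.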

Additional observations from a re-analysis of the deposited data

How the results depend on the processing

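Of 720 alternative values for the 45 genes named as targeted, most changed or most abundant, on a role list or as microRNA hosts, 636 kept direction and side of the threshold, 57 lost the call, 8 gained it and 19 changed sign. The sign changes were all in members not past the threshold. They were 2410006H16Rik under TPM (−0.039), quantile normalization (−0.055) and cyclic loess (−0.064), Carmn under median centring (0.023), quantile normalization (0.16) and cyclic loess (0.15), Mir22hg under median centring (0.055), quantile normalization (0.062) and cyclic loess (0.055), and 10 cases with 1 library left out. Over the 6 such fits Gm26917 ran from −0.21 to 0.0013 (without scrambled library 3), 2410006H16Rik from −0.039 (without knockdown library 1) to 0.084, Malat1 from −0.33 to 0.090 (without knockdown library 1), Carmn from −0.15 to 0.11 (without knockdown library 2), Peg13 from −0.015 (without scrambled library 3) to 0.14 and Mir22hg from −0.045 to 0.030 (without scrambled library 3). Called higher were 32 members as reported, 20 without the level filter, where 19877 genes share the adjustment, 54 under quantile normalization and 51 under cyclic loess. All 32 remained called under both scalings. Called lower were 37 as reported and 16 and 18 under these scalings. Changes of at least 2-fold, 0 as reported, numbered 3 with a pseudocount of 0.1, 1 under TPM, 1 under quantile normalization, 1 under cyclic loess and 3 with limma-voom. Leaving out 1 library gave 26 to 32 higher, 26 to 44 lower and 0 to 0 at 2-fold. The log2 ratio of the summed FPKM was 0.04 as reported, 0.03 to 0.06 with 1 library left out and −0.00041 under TPM. With the batch as a replicate block, the log2 ratio of the sums was 0.04 (exact sign-flip test, p = 0.5). With only 3 batches this sign-flip test cannot reach a small p. In the same setting 38 members were higher, 41 lower and 0 at 2-fold, Airn lost its call and Lncppara gained one. The cause of these shifts was not tested. A member with few fragments, such as 5830408C22Rik with 6 to 26, allows only large changes to be seen.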

Other observations

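Below the level filter lay 3997 non-coding genes. Fitted together with all 19877 genes and no filter, 31 of them were called higher and 94 lower (limma, adjusted over all 19877 genes, of which 9.0% were called higher and 16.4% lower). 1700084E18Rik was at 0.281, 0.184 and 0.121 FPKM in scrambled and 0.686, 0.707 and 0.737 FPKM in knockdown libraries 1 to 3, which is 2 to 5 fragments against 10 to 13. G430095P16Rik was at 0.545, 0.794 and 1.13 FPKM in scrambled and 0.242, 0.274 and 0.220 FPKM in knockdown libraries, with 6 fragments in each of the latter. 1810021B22Rik was at 0.747, 0.736 and 0.644 FPKM in scrambled and 0.332, 0.141 and 0.264 FPKM in knockdown libraries. These genes were named after their values were seen.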
